A study of Homo sapiens with 12 samples.

Results

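The miR-30 family is a group of small regulatory RNAs cut from hairpins named with the letters a to e. Its members were taken by name, as every row called hsa-miR-30 with a letter a to e, whatever its arm or copy number. This gave 8 strands of the 753 microRNAs with a row in both tables used here, 3 from the 5p arm (hsa-miR-30a-5p, hsa-miR-30d-5p and hsa-miR-30e-5p) and 5 from the 3p arm (hsa-miR-30a-3p, hsa-miR-30b-3p, hsa-miR-30c-1-3p, hsa-miR-30d-3p and hsa-miR-30e-3p). The species prefix is left out below. The number of strands with a row in 1 table only was 0. No row was named miR-30b-5p, miR-30c-5p or miR-30c-2-3p, so these strands could not be analysed here.

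The strands were measured by small-RNA sequencing of K562, a human erythroleukaemia line, in 12 libraries that formed 4 groups of 3. The sgNT cells carried a non-targeting guide RNA, and the sgCYRANO cells carried a guide against CYRANO, a long non-coding RNA that causes decay of miR-7. The WT cells had received no guide, and the ZSWIM8 KO cells, with the genotype ZSWIM8-/-, are also described as having received none. The sources used here do not state whether either edited line was 1 clone or a pool, and clone and genotype cannot be told apart. The erythroid microRNAs miR-486-5p and miR-451a were both present, at 11701 and 774.9 counts per 1000000 reads (CPM) in sgNT. For miR-451a the WT mean was 574.5 CPM and the ZSWIM8 KO mean 956.3 CPM, a difference that did not pass (adjusted p = 0.583, the authors' edgeR test).

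A microRNA hairpin gives a 5p and a 3p strand, of which the one held by an Argonaute protein guides repression. Target choice rests mainly on the seed, bases 2 to 8 of the strand, so strands with the same seed share many targets. The 5p strands of the miR-30 family share such a seed and are known for repressing SNAI1, a driver of epithelial-to-mesenchymal transition, and BECN1, a factor of autophagy. Target-directed decay is the reverse process, in which an extensively paired RNA causes loss of the microRNA. ZSWIM8 is the substrate receptor of the ubiquitin ligase that removes Argonaute in this process.

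RefSeq sequences (GRCh38.p14) were matched for 5 of the 8 strands and are shown because the family divides by seed and because close copies differ very little. Each is printed 5′ to 3′ with the seed in capitals.
miR-30a-5p: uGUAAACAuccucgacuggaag
miR-30e-5p: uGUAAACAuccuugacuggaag
miR-30a-3p: cUUUCAGUcggauguuugcagc
miR-30e-3p: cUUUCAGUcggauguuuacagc
miR-30c-1-3p: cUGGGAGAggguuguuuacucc

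The 5p strands miR-30a-5p and miR-30e-5p had the seed GUAAACA, and their 3p partners had UUUCAGU, while miR-30c-1-3p had a seed of its own, UGGGAGA. Counted from the 5′ end, miR-30a-5p and miR-30e-5p differed by 1 substitution in 22 bases, C13U, with the base of miR-30a-5p first. The partners miR-30a-3p and miR-30e-3p also differed by 1 substitution, G18A. The sources used here do not state how reads matching close family members were assigned, which makes the split between such copies uncertain. Among annotated strands, miR-30c-2-3p and miR-6788-5p have the seed of miR-30c-1-3p, and neither had a row in both tables.

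MIR30E lies at chr1:40754355-40754446 on the + strand of GRCh38, within NFYC, a gene for a subunit of the transcription factor NF-Y. Both of its arms were measured, and the hairpin is shown with these arms in capitals.
MIR30E: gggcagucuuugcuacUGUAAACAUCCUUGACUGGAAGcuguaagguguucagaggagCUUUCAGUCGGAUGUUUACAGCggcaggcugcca

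MIR30C1 begins 2838 bases further on, at chr1:40757284-40757372, in the same gene and orientation. Neither hairpin overlapped an NFYC exon in GENCODE, so both are intronic. MIR30A lies at chr6:71403551-71403621 on the - strand, in an intron of the non-coding gene LINC00472.

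Each comparison was read from its own table, as deposited by the authors, 1 of sgCYRANO against sgNT (837 microRNAs) and 1 of ZSWIM8 KO against WT (868 microRNAs). The tables give 1 change per microRNA and no value of single libraries, so the group means below were recovered from the deposited columns and carry no spread over replicates. Library totals, inferred from the worth of 1 read in the scarcest microRNAs, lay between 860000 and 2490000 reads. The standard errors given after ± were derived from the p-values of the tables. Except for miR-30e-3p and miR-30a-3p in sgCYRANO, described below, they rest almost wholly on 2 parts that are not a strand's own spread. These are a variance that the fit shared between microRNAs and a counting error set for a fixed library size. The counting error is larger for scarcer strands, and its part in each standard error was not tested. Apart from the standard error of miR-30e-3p in sgCYRANO, none can be taken to show the spread of a strand over its 3 libraries. The second-named group in each table's name was read as the numerator, since the headers give no direction, and if that reading were turned the means of both groups would change places and every direction below would turn. Under the reading used, miR-7-5p, the known decay substrate of CYRANO, was higher in sgCYRANO, at 34884 against 6102 CPM, and in ZSWIM8 KO, at 23494 against 4617 CPM.

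The measured strands of the family spanned more than 3 powers of 10 in abundance, and miR-30d-5p dominated them. Where miR-30b-5p and miR-30c-5p stand among them is not known. miR-30d-5p had group means of 23323 CPM in sgNT and 24637 CPM in sgCYRANO, and of 21115 CPM in WT against 38430 CPM in ZSWIM8 KO. By mean abundance it ranked 9 in the table of sgCYRANO and 7 in that of ZSWIM8 KO. The level was highest in ZSWIM8 KO, with the other groups within 1.17-fold of each other. Both tables are scaled to 1000000 per group, and levels were set side by side across them without a test. Levels are shares of reads, and how evenly strands of different sequence were captured was not tested.

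The strands of the miR-30e hairpin came next, with arms of similar abundance. miR-30e-5p had 3847 CPM in sgNT and 3286 CPM in sgCYRANO, and 3493 CPM in WT against 2953 CPM in ZSWIM8 KO. miR-30e-3p had 2679 CPM in sgNT and 3191 CPM in sgCYRANO, and 3152 CPM in WT against 2435 CPM in ZSWIM8 KO. The 5p arm therefore held between 50.7% and 58.9% of the reads of this hairpin in the 4 groups. Taking the error of a group mean as that of the change over the root of 2, the arms were not apart in sgCYRANO and WT. They were apart in sgNT, by 0.52 ± 0.25 on the log2 scale, and in ZSWIM8 KO, by 0.28 ± 0.10. The sgNT error comes mostly from miR-30e-3p, described below. With the 4 degrees of freedom of that strand a wider cutoff would apply, so the sgNT call is uncertain.

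In the hairpin of miR-30d, almost all reads came from the 5p arm, which held 99.7% to 99.8% of them. Its other strand, miR-30d-3p, had 62.8 CPM in sgNT and 56.0 CPM in sgCYRANO, and 45.2 CPM in WT against 72.4 CPM in ZSWIM8 KO. Levels of the same order were found for miR-30c-1-3p, with 69.1, 65.5, 59.8 and 47.1 CPM in sgNT, sgCYRANO, WT and ZSWIM8 KO. miR-30b-3p had 48.0, 53.3, 49.0 and 53.8 CPM in that order. Within this band of scarce strands, most neighbours in the order of level were not apart in WT and ZSWIM8 KO.

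The miR-30a strands were the scarcest measured strands of their arms. miR-30a-5p had 36.2 CPM in sgNT and 40.3 CPM in sgCYRANO, and 30.2 CPM in WT against 51.1 CPM in ZSWIM8 KO. miR-30a-3p had 7.51, 7.18, 7.72 and 7.22 CPM in the same order, which corresponds to about 29.4 reads over the WT libraries and 51.0 over the ZSWIM8 KO libraries. The level of miR-30a-5p was 0.155%, 0.163%, 0.143% and 0.133% of that of miR-30d-5p in sgNT, sgCYRANO, WT and ZSWIM8 KO, a 1.23-fold range. Against miR-30e-5p the same ratio ran from 0.864% in WT to 1.73% in ZSWIM8 KO. The 3p strand miR-30a-3p stood at 0.225% to 0.297% of miR-30e-3p. The part of read assignment in the miR-30a values was not tested.

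**Figure D1:**
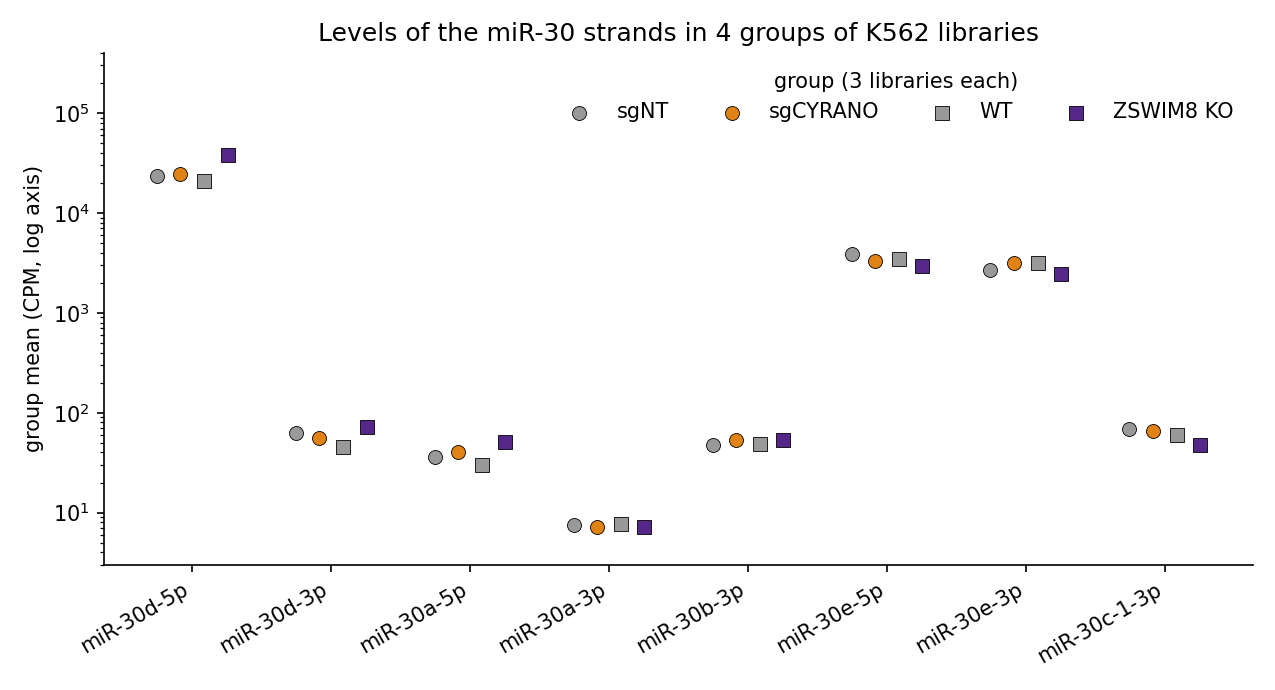
Group mean of each miR-30 strand in CPM on a log axis, with circles for sgNT and sgCYRANO and squares for WT and ZSWIM8 KO, each the mean of 3 libraries and drawn without error bars because no values of single libraries were used. miR-30d-5p lies at 21115 CPM or more in all 4 groups, the miR-30e strands between 2435 and 3847 CPM, and the other strands below 100 CPM.

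The second table asks which strands respond to loss of ZSWIM8. In ZSWIM8 KO the measured strands did not move as a block: miR-30d-5p rose, miR-30e-3p fell, and the other 6 strands did not pass an adjusted p of 0.05. Of all 868 microRNAs, 9.91% passed, 4.72% higher and 5.18% lower, against 2 of the 8 strands. Of the 304 microRNAs at a mean of 10 CPM or more, 23% passed, against 2 of the 7 strands at that level, so the strands' count lay near the background. The median log2 fold change of the 8 strands was 0.02, beside 0.08 over all microRNAs and 0.13 over those at 10 CPM or more. In these bulk libraries, less of a strand per cell and fewer cells that hold it cannot be told apart, and small-RNA tables hold no value that checks the loss of ZSWIM8 or CYRANO itself.

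Of the 8 strands, miR-30d-5p had the largest log2 fold change. Its log2 fold change was 0.86 ± 0.09 in the authors' deposited table (edgeR quasi-likelihood test, adjusted p = 4.03e-20), which is a 1.82-fold rise with a 95% interval of 1.61 to 2.05. Of the 16 microRNAs at a mean of 10000 CPM or more, 1 had a larger log2 fold change, miR-7-5p. The gain of 17314 CPM equalled 1.73% of all reads and ranked 3 among all microRNAs by difference in CPM.

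The other strand of this hairpin had a positive change that did not pass. For miR-30d-3p the authors' deposited table gave 0.68 ± 0.24, and the adjusted p of 0.052 lay just outside the threshold. From group means of 45.2 and 72.4 CPM, this is 1.60-fold, with an interval of 1.15 to 2.23. The strand miR-30b-3p, from the partner hairpin that lies beside that of miR-30d in the genome, had 0.13 ± 0.25 in the authors' deposited table (adjusted p = 0.848).

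miR-30a-5p also had a positive change that did not pass. The authors' deposited table gave 0.76 ± 0.28 (adjusted p = 0.059), with group means of 30.2 and 51.1 CPM. Its partner miR-30a-3p had -0.09 ± 0.44 (adjusted p = 0.946) in the authors' deposited table, and the interval of -0.96 to 0.77 leaves changes of either sign possible.

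The strands from the NFYC introns all had a negative log2 fold change, of which 1 passed. For miR-30e-3p it was -0.37 ± 0.10 in the authors' deposited table (edgeR quasi-likelihood test, adjusted p = 0.0042), a 1.29-fold fall, with an interval of 1.13 to 1.49. miR-30e-5p had -0.24 ± 0.10 in the authors' deposited table (adjusted p = 0.0995). For miR-30c-1-3p the authors' deposited table gave -0.34 ± 0.25 (adjusted p = 0.505). The 3 changes lay within 0.13 of each other on the log2 scale, but the interval of miR-30c-1-3p, -0.84 to 0.15, holds both signs. miR-30e-3p and miR-30e-5p are arms of the same hairpin. A negative change was found for 398 of all 868 microRNAs and for 120 of the 304 at 10 CPM or more.

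Which strands are counted as changed depended on the reading of the table. When F was read with 4 denominator degrees of freedom, the number left by 6 libraries in 2 groups, neither call held, with adjusted p-values of 0.0593 for miR-30d-5p and 0.327 for miR-30e-3p. The deposited F already holds the shared variance, with 164 degrees of freedom implied for both strands. This reading sets that variance against the degrees of freedom of an unshared 1, so it does not test either strand on its own spread. When p-values were adjusted only over the 304 microRNAs at 10 CPM or more, miR-30a-5p, miR-30d-3p and miR-30e-5p passed as well, which made 5 of 7 strands beside 33.6% of the 304. Centring on the median of 0.13 brought in miR-30e-5p (adjusted p = 0.0028). After that centring 10.6% of all microRNAs passed, 3.46% as higher and 7.14% as lower, and after centring on the trimmed mean 10.5% did. With 4 degrees of freedom 0.346% of all microRNAs passed.

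**Figure D2:**
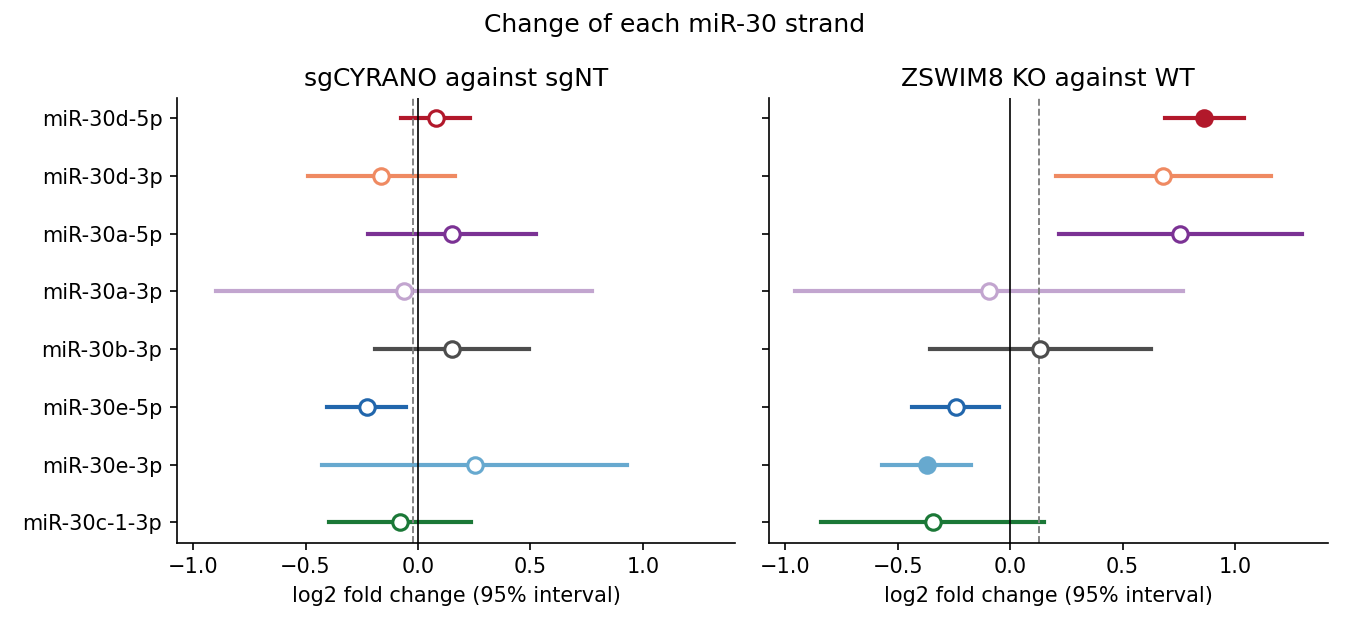
Log2 fold change of each miR-30 strand with its 95% interval, for sgCYRANO over sgNT on the left and ZSWIM8 KO over WT on the right, with filled points for an adjusted p under 0.05 and a dashed line at the median of microRNAs at 10 CPM or more. Filled points appear on the right only, for miR-30d-5p at 0.86 and miR-30e-3p at -0.37. The interval of miR-30e-3p on the left takes its error as normal and would be wider with its 4 degrees of freedom.

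The 5p strands changed by different amounts in ZSWIM8 KO. Changes were compared over all 142 pairs of same-numbered, same-arm microRNAs with different letters, of which 8.45% differed (normal test of the difference of log2 fold changes, two-sided, Benjamini-Hochberg adjustment). Of the 13 pairs among miR-30 strands, 4 differed. miR-30d-5p changed by 1.11 ± 0.13 more than miR-30e-5p on the log2 scale (adjusted p = 8.89e-15), and miR-30a-5p by 0.999 ± 0.29 more (adjusted p = 0.011). Between miR-30a-5p and miR-30d-5p the difference was -0.11 ± 0.29, with an interval of -0.68 to 0.46. The level of miR-30a-5p was 0.133% to 0.163% of that of miR-30d-5p in the 4 groups. The part of read assignment in the change of miR-30a-5p was not tested.

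Of the 10 pairs of 3p strands, 2 passed, both with miR-30d-3p. miR-30d-3p changed by 1.05 ± 0.26 more than miR-30e-3p (adjusted p = 0.0024), and miR-30c-1-3p by 1.02 ± 0.35 less than miR-30d-3p (adjusted p = 0.042). Between miR-30a-3p and miR-30e-3p the change differed by 0.28 ± 0.45, with an interval of -0.61 to 1.16 (adjusted p = 0.877). Since paired strands come from the same libraries, their errors may be correlated, which this test does not take into account.

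Among the measured 5p strands, the share of miR-30d-5p was highest in ZSWIM8 KO. The measured 5p strands together held 27206 CPM in sgNT and 27963 CPM in sgCYRANO, and 24639 CPM in WT against 41433 CPM in ZSWIM8 KO. The sum was 1.68-fold higher in ZSWIM8 KO than in WT and 1.03-fold higher in sgCYRANO than in sgNT, values without a test, as are the shares. miR-30d-5p made up 85.7% of this sum in sgNT and in WT, 88.1% in sgCYRANO and 92.8% in ZSWIM8 KO. The share of miR-30e-5p was 14.1% in sgNT and 11.8% in sgCYRANO, and 14.2% in WT and 7.13% in ZSWIM8 KO. The ratio of miR-30d-5p to miR-30e-5p was 6.04 in WT and 13.0 in ZSWIM8 KO.

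**Figure D3:**
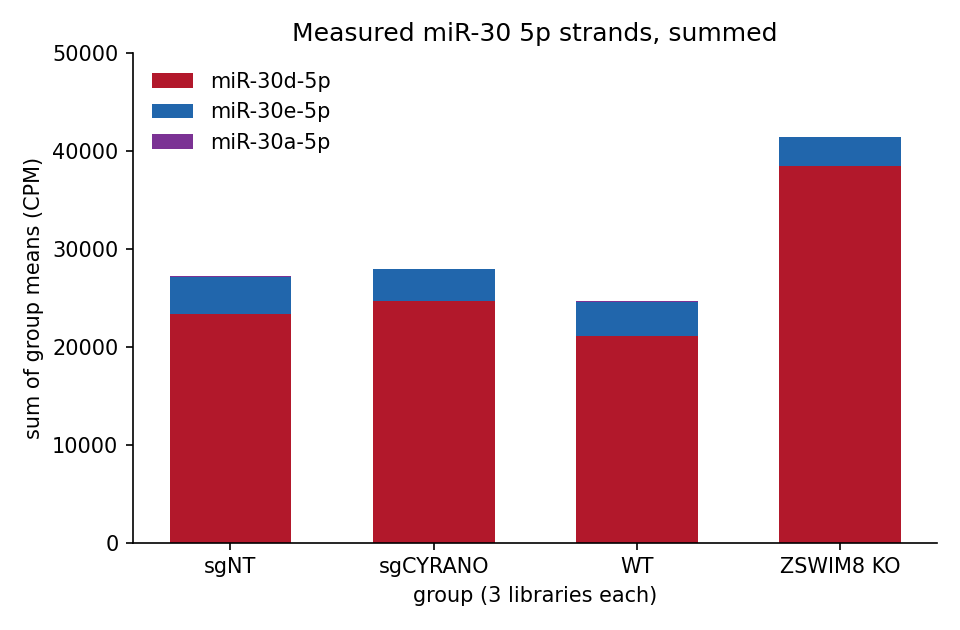
Sum of the group means of miR-30d-5p, miR-30e-5p and miR-30a-5p in CPM, stacked, for the 4 groups of 3 libraries. The sum reaches 41433 CPM in ZSWIM8 KO against 24639 to 27963 CPM elsewhere, and the band of miR-30a-5p is too thin to see at 30.2 to 51.1 CPM.

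Within a hairpin, the arms did not change by detectably different amounts in ZSWIM8 KO. Of 188 hairpins with both arms under the same name, 3.72% passed the same test of the difference, and 0 of the 3 miR-30 hairpins did. The change of the 5p arm exceeded that of the 3p arm by 0.18 ± 0.26 for miR-30d, with an interval of -0.32 to 0.69, and by 0.13 ± 0.14 for miR-30e, with an interval of -0.15 to 0.41. For miR-30a the difference was 0.85 ± 0.52, with an interval of -0.17 to 1.87, the widest of the 3, with miR-30a-3p at 7.72 and 7.22 CPM. The unadjusted p-values were 0.479, 0.359 and 0.102, so 0 of them was under 0.05 either.

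In sgCYRANO none of the 8 strands passed the edgeR quasi-likelihood test. The same test called 0.119% of the 837 microRNAs and 0.334% of those at 10 CPM or more. An unadjusted p under 0.05 was found for 1 of the 8 strands, miR-30e-5p, beside 5.85% of all microRNAs and 12.7% of those at 10 CPM or more. The median log2 fold change of the strands was 0.01, as was that of all microRNAs. The most precise value was that of miR-30d-5p, at 0.08 ± 0.08 in the authors' deposited table (adjusted p = 0.980), with a fold interval of 0.950 to 1.17. In the authors' deposited table miR-30e-5p had -0.23 ± 0.09 and an adjusted p of 0.631. The values for miR-30a-5p, miR-30b-3p, miR-30c-1-3p and miR-30d-3p lay between -0.16 and 0.15 in the authors' deposited table, with adjusted p-values of 0.980 to 0.984. The scarcest strand, miR-30a-3p, had -0.06 ± 0.43 (adjusted p = 0.996) in the authors' deposited table.

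The strand miR-30e-3p stood apart in this comparison by its error. The authors' deposited table gave 0.25 ± 0.35 (adjusted p = 0.984), with an F from which a standard error of 0.31 followed, 3.45 times that of the 40 microRNAs nearest in abundance. Larger ratios were found for miR-100-5p and miR-223-5p only, of 837 microRNAs. F and p together implied 4 degrees of freedom for miR-30e-3p, against 3348 for miR-30d-5p, whose variance was therefore almost wholly shared. For miR-30a-3p they implied 1.11, fewer than the 4 that 6 libraries leave, so its deposited p was larger than its F gives at 4 degrees of freedom. The error of miR-30a-3p therefore cannot be read as its spread over libraries, and what it rests on was not tested. In ZSWIM8 KO against WT the error of miR-30e-3p was 0.991 times that of its neighbours. Which libraries give the wide error cannot be seen from the table.

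**Figure D4:**
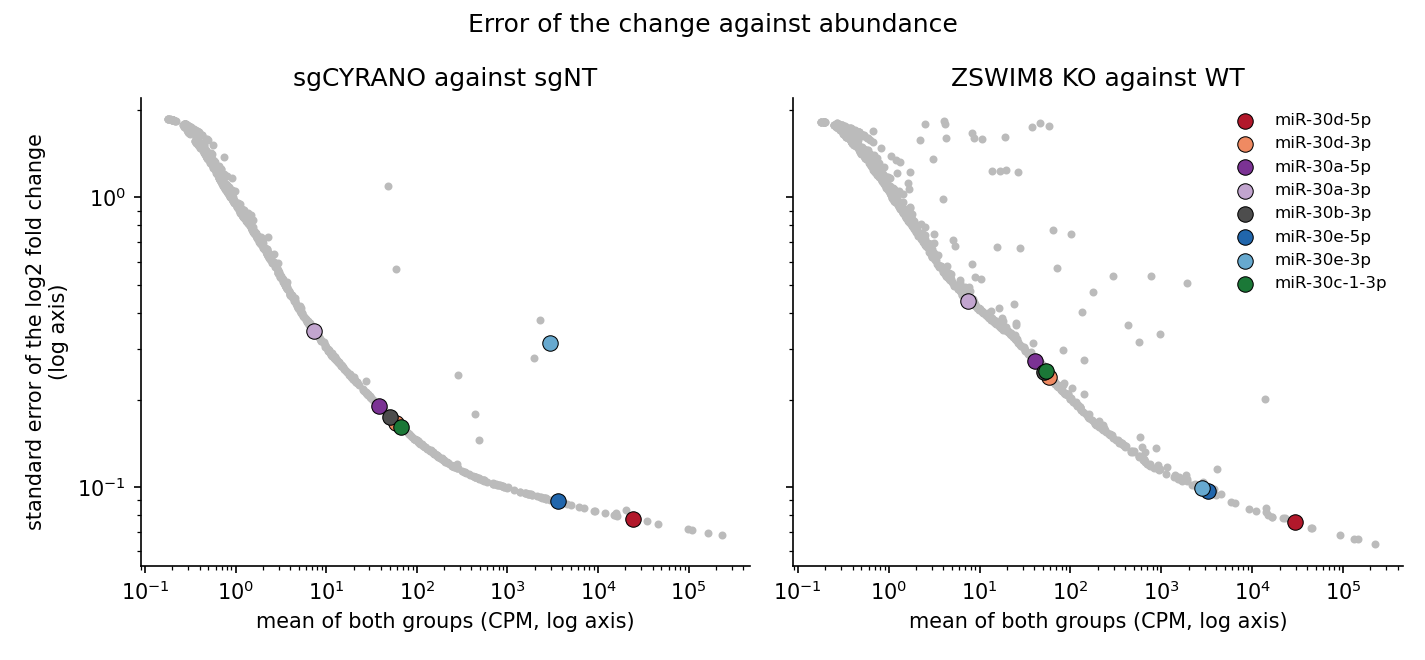
Standard error of the log2 fold change, taken from the deposited F, against mean abundance in CPM, both on log axes, with all microRNAs in grey and the miR-30 strands in colour. On the left, for sgCYRANO against sgNT, miR-30e-3p lies above the band of the other microRNAs at 0.31, and on the right all 8 strands lie within the band.

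The arms and pairs gave no call in sgCYRANO. Of 127 same-arm pairs 0 passed, with 0 of the 13 miR-30 pairs among them, and of 180 hairpins 0 passed, with unadjusted p-values of 0.180, 0.188 and 0.647 for miR-30e, miR-30d and miR-30a. The smallest unadjusted p among the miR-30 pairs was 0.0099, for miR-30d-5p over miR-30e-5p at 0.31 ± 0.12 (adjusted p = 0.626). Of the 7 strands at 10 CPM or more, 6 had a 95% interval of the change in sgCYRANO within 1.5-fold in either direction, and the exception was miR-30e-3p, with 0.744 to 1.91 on the fold scale. That interval takes the error as normal, and it would be wider with the 4 degrees of freedom of this strand. Of all microRNAs at that level, 68.2% had such an interval. In ZSWIM8 KO the same held for 2 of the 7 strands, beside 27.6% of all microRNAs at that level.

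The groups of both comparisons share no library, so the changes could be tested against each other. Over 753 microRNAs, 6.64% differed between the comparisons (normal test, two-sided, Benjamini-Hochberg adjustment), and 1 of the 8 strands did. For miR-30d-5p the change in ZSWIM8 KO exceeded that in sgCYRANO by 0.78 ± 0.12 (adjusted p = 4.25e-09). The difference for miR-30d-3p was 0.84 ± 0.30 (adjusted p = 0.061), and it passed, at 0.027, when only microRNAs at 10 CPM or more were tested, of which 19.7% passed. For miR-30e-5p the difference was -0.01 ± 0.13, with an interval of -0.28 to 0.25. For comparison, miR-7-5p had 2.52 ± 0.09 in sgCYRANO and 2.35 ± 0.14 in ZSWIM8 KO in the authors' deposited table.

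**Figure D5:**
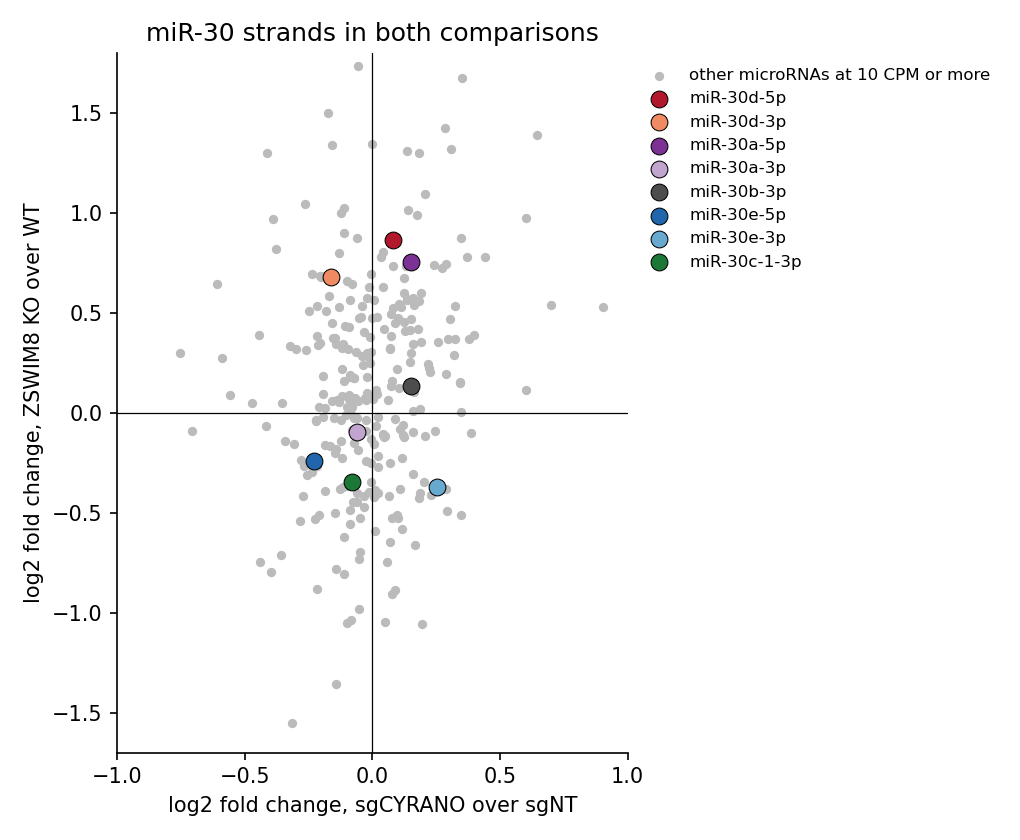
Log2 fold change in ZSWIM8 KO over WT against that in sgCYRANO over sgNT, with the miR-30 strands in colour and other microRNAs at 10 CPM or more in both tables in grey; miR-30a-3p is below that level, and 7 microRNAs lie outside the axes. miR-30d-5p, miR-30d-3p and miR-30a-5p sit between 0.68 and 0.86 on the vertical axis, and the miR-30e strands and miR-30c-1-3p between -0.37 and -0.24.

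The microRNAs nearest to each strand in both log2 fold changes were sought among 135 at 100 CPM or more in both tables, with distance over the 2 comparisons as the measure. Nearest to miR-30d-5p was miR-340-5p, at a distance of 0.13, with 0.08 in sgCYRANO and 0.73 in ZSWIM8 KO, followed by miR-451a and miR-135b-5p. The value of miR-451a in ZSWIM8 KO was uncertain, at 0.74 ± 0.62. For miR-30a-5p the 3 nearest were miR-451a, miR-340-5p and miR-30d-5p, and for miR-30d-3p they were miR-361-5p, miR-501-3p and miR-454-3p. miR-101-3p was nearest to miR-30e-5p, miR-223-5p to miR-30e-3p and miR-339-3p to miR-30c-1-3p. In sgCYRANO the errors of miR-223-5p and miR-30e-3p were 4.04 and 3.45 times those of their neighbours in abundance, so that match is uncertain. miR-128-3p was nearest to miR-30b-3p and miR-615-3p to miR-30a-3p. Likeness over 2 values is a description only.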

How the data were processed

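Per the labels' protocols, total RNA of K562 was extracted with miRNeasy and made into libraries with a NEBNext kit. Tools listed by the submitters' processing notes, with no role or order, are edgeR, featureCounts, STAR, FastQC 0.11.2 and bcl2fastq, and the build is hg19. Per the file headers, the authors deposited for each microRNA a log2 fold change, a mean log2 CPM, an F statistic (used as a score), a p-value and an adjusted p-value. The sources used here do not state the filter on low values. The replicates are biological triplicates of each line, per the series' design text.

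Group means were recovered by inverting both log2 columns with prior counts of 2 and 0.125, and summed to 1000000 in each group. The authors' edgeR fit was therefore fed values already scaled to library totals, and its counting error was set as for 1000000 reads per library. Library totals came from the smallest steps, which accounted for 896 of 896 nonzero group means under 1 CPM within 0.0015 CPM. A standard error was obtained by dividing the log2 fold change by the normal deviate of its p. Intervals and difference tests took this error as normal, which does not hold for miR-30e-3p in sgCYRANO, with 4 degrees of freedom. Differences between strands, arms and comparisons were tested over whole tables with a two-sided normal test (scipy 1.17.1). Its code was run on simulated data with independent normal errors. Those data cannot show how the test behaves with shared variance or correlated errors. Benjamini-Hochberg adjustment over every row matched the deposited values within 1.09e-06.

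The members, lists and tests were chosen with earlier results of these data known. Named microRNAs are the members, the 3 nearest patterns of each, strands that share a seed, and 4 measured decay substrates. Outside this rule, miR-486-5p is named as a cell marker and miR-100-5p for its error, after their values were seen. Of the decay substrates, miR-29b-3p, miR-221-3p and miR-222-3p had log2 fold changes of -0.16, -0.28 and -0.19 in sgCYRANO and 0.45, -4.76 and -4.88 in ZSWIM8 KO in the authors' deposited tables. The list sought held 6 reported substrates, among them miR-30b-5p and miR-30c-5p of this family, which had no row.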

Additional observations from a re-analysis of the deposited data

How the results depend on the processing

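Of the 8 strands in ZSWIM8 KO, 2 passed as deposited. The count was 5 when p-values were adjusted only over microRNAs at 10 CPM or more, 3 after centring on the median or the trimmed mean, and 0 when F was read with 4 denominator degrees of freedom, beside 33.6%, 10.6% or 10.5%, and 0.346% of the microRNAs tested; the count of strands that differed between the comparisons was 1, and 2 at 10 CPM or more, where 19.7% of microRNAs did. Fewer tests entered at 10 CPM. At 4 degrees of freedom, an F that holds the shared variance was read with the degrees of freedom of an unshared variance. For centring the cause was not tested. The change of miR-30b-3p turned from 0.13 to -0.014 after centring on the trimmed mean. In sgCYRANO 0 strands passed under each of these settings, and the counts of differing pairs (4) and arms (0) kept to the same number with errors from F and at 10 CPM or more. No paired analysis was possible because the tables hold comparisons and no values of single libraries, so no library could be left out either. The scarcest of the 8 strands, miR-30a-3p, had the largest standard error derived from p in both comparisons.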
